A study of Mus musculus with 3 samples.

Results

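Tenocytes of aged 21 M B6 mice were compared directly with tenocytes of 6 M DTR mice, in which Scx-lineage cells had been depleted in young adulthood. Both came from the flexor digitorum longus (FDL) tendon, and single-cell RNA sequencing counted transcripts by their unique molecular identifiers (UMIs). Of 19709 cells kept in the 3 libraries of the study, 3516 were tenocytes of these 2 libraries: 937 of 4798 kept cells in 21 M B6 and 2579 of 6554 in 6 M DTR. Kept cells had 1000 to 5000 genes and at most 10% mitochondrially encoded UMIs. A tenocyte was a kept cell with at least 10 UMIs summed over *Tnmd*, *Fmod*, *Kera* and *Cilp2*, which tenocytes are known to express. That sum also had to exceed the sum of *Efemp1*, *Pi16*, *Scara5*, *Cd248*, *Krtdap* and *Ccn3*, genes of epitenon and other fibroblasts. Cells with over 2 UMIs of the myeloid genes *Tyrobp* and *Fcer1g*, or any UMI of the endothelial genes *Pecam1* and *Cdh5*, were left out.

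The 6 M DTR mice carried Scx-Cre and 1 copy of a Cre-activated diphtheria toxin receptor (Scx-Cre+; DTR F/+). They were given 5 daily injections of diphtheria toxin. The label gives these mice an age of 3 months, whereas the study's methods place the injections at 3 months and the harvest at 6 months. The 21 M B6 mice were untreated C57/Bl6 animals of 21 months without either allele. A library of 6 M WT mice (Scx-Cre-; DTR F/+), which received the same toxin but lack Cre, is printed beside them. All mice are labelled C57BL/6J. Each library pooled 16 tendons of mice of both sexes, and tissue was digested for 120 min in 6 M WT and for 90 min in the other libraries. Scx-Cre was not inducible and so targets all Scx-lineage cells, a lineage that also contributes to bone and muscle. There was 1 library per group: no difference was tested, and age, genotype, toxin and library cannot be told apart in the comparison of 21 M B6 with 6 M DTR.

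Tenocytes are the resident fibroblasts of tendon, and they make and maintain its matrix of aligned type I collagen fibrils, proteoglycans and adhesive glycoproteins. Scleraxis (*Scx*) is the transcription factor that marks their lineage. Cells that keep their proteins folded rely on heat shock chaperones, which are switched on by heat shock factors, while viral nucleic acids and cytokines switch on interferon and interleukin 6 (IL-6) target genes. These programmes are described here across both libraries before the matrix genes.

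Tenocytes made up 19.5% (exact 95% binomial interval 18.4 to 20.7) of kept cells in 21 M B6 and 39.4% (38.2 to 40.5) in 6 M DTR, with 60.5% (59.4 to 61.5) in 6 M WT. The median tenocyte held 11432 UMIs and 2582 genes in 21 M B6, against 12655 and 3117 in 6 M DTR. Mitochondrially encoded UMIs took a median of 5.50% per tenocyte in 21 M B6 and 2.86% in 6 M DTR, and the limit of 10% removed 56.5% and 43.1% of barcodes. Levels are given as CPM, the UMIs of a gene in all tenocytes of a library after scaling their total to 1000000. *Gm42418*, a nuclear transcript whose counts can include ribosomal RNA, stood at 49687 CPM in 21 M B6 and 15205 in 6 M DTR, and summed haemoglobin transcripts at 1050 and 3622. Of the cells that could be assigned a sex, 51.7% were called female in 21 M B6 and 40.3% in 6 M DTR. These shifts run alongside every comparison below, and their part in it was not tested. The 2 libraries shared 61 barcodes among all those deposited, and 2 barcodes were tenocytes in both. Mouse *Hbegf*, the orthologue of the transgenic receptor, stood at 363 CPM in 21 M B6 and 362 in 6 M DTR, and its counts check neither the transgene nor the depletion.

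The genes that chose the cells are given as a description only. *Fmod*, a collagen-binding proteoglycan, stood at 6594 CPM in 21 M B6 and 6161 in 6 M DTR, and *Tnmd*, a tenocyte membrane protein, at 475 and 627. *Kera*, a corneal and tendon proteoglycan, stood at 38.9 and 36.7, and *Cilp2*, a matrix protein of cartilage and tendon, at 411 and 1011. The median tenocyte held 72 UMIs of the 4 genes in 21 M B6 and 75 in 6 M DTR. Just inside the threshold, with 10 to 14 UMIs of the 4 genes, lay 43 tenocytes of 21 M B6 and 150 of 6 M DTR. Just outside it, with 5 to 9, lay 41 and 151 cells that met the other conditions. *Scx* itself, which the rule did not use, stood at 72.7 CPM in 21 M B6, 113 in 6 M DTR and 90.4 in 6 M WT.

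The aged tenocytes had higher levels of most interferon response genes measured, of a few inducible chaperones and of *Il6*, while the 6 M DTR tenocytes had higher levels of most fibrillar collagens and of *Spp1* and *Fn1*. Among 2786 genes that reached 50 CPM in either library, 124 (4.45%) were at least 2-fold higher in 21 M B6 and 125 (4.49%) at least 2-fold higher in 6 M DTR. The median gene lay at a log2 ratio of 21 M B6 over 6 M DTR of -0.22, and 33.5% of the genes were higher in 21 M B6 by any amount. This balance depended on the scaling. With trimmed mean of M values (TMM) factors, which centre the bulk of genes, the median moved to 0.11 and the counts to 244 and 54, so that 81.9% of the genes past 2-fold were higher in 21 M B6, against 49.8% by CPM. Gene groups are therefore read against the general shift. The groups were drawn from the 9416 genes that reached 5 CPM in either library. Their median was -0.31, 357 (3.79%) were at least 2-fold higher in 21 M B6 and 689 (7.32%) in 6 M DTR.

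**Figure D1:**
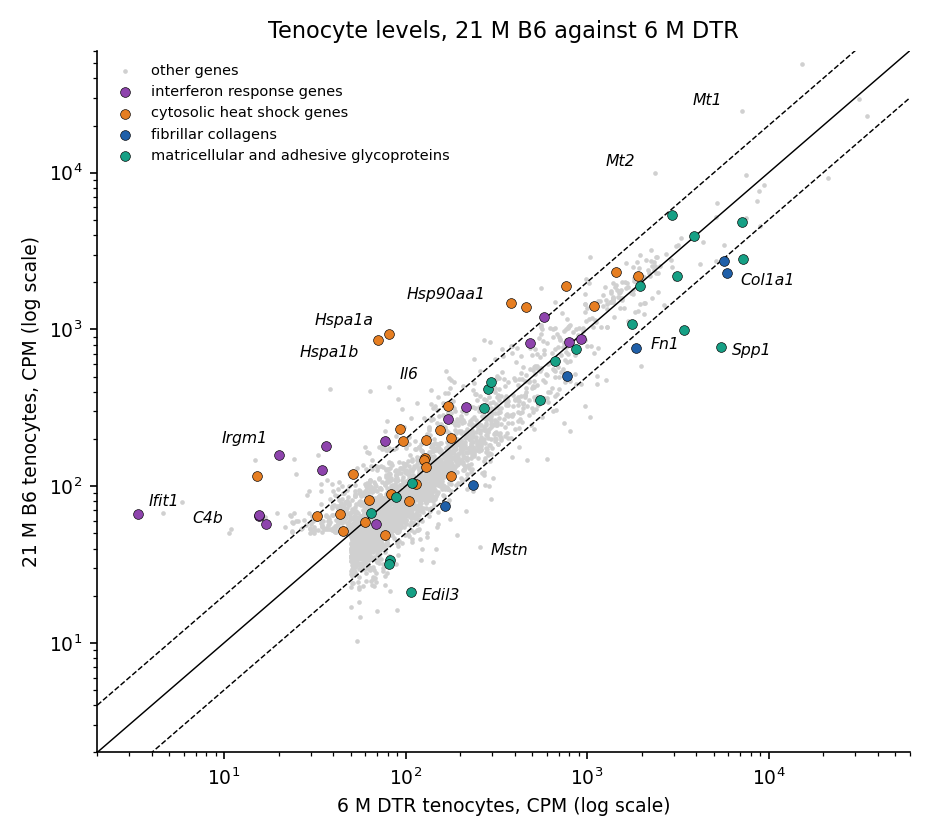
Level of each gene in tenocytes of 21 M B6 (vertical axis, CPM, log scale) against 6 M DTR (horizontal axis, CPM, log scale), 1 point per gene with at least 50 CPM in 1 library, with 4 gene groups in colour and dashed lines at 2-fold. *Hspa1b* lies far above the upper line at 856 against 70.8 CPM, and *Spp1* far below the lower one at 774 against 5492.

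A few inducible cytosolic chaperones stood several times higher in tenocytes of 21 M B6 than in those of 6 M DTR. *Hspa1b* (ENSMUSG00000090877), an inducible HSP70 that refolds damaged proteins, stood at 856 CPM in 21 M B6, 70.8 in 6 M DTR and 62.0 in 6 M WT. Its ratio of 21 M B6 over 6 M DTR was 12.1, with an exact 95% interval from both UMI counts of 11.6 to 12.6. Its near-identical neighbour *Hspa1a* stood at 938, 81.2 and 68.2 CPM, a ratio of 11.5 (11.1 to 12.0). Reads of the pair may have been split between the 2 genes, so their separate levels are uncertain. Here and below, such intervals cover counting error only and not the difference between cells, mice or libraries. They count each UMI as independent and are too narrow where few cells hold most UMIs. *Hsph1*, an exchange factor that recharges HSP70, stood at 116, 15.2 and 20.7 CPM, and *Hsp90aa1*, the inducible HSP90, at 1476, 382 and 482, giving 7.60 (6.87 to 8.42) and 3.87 (3.78 to 3.95). *Hspa8*, the constitutive HSP70, was 2.50-fold (2.45 to 2.54) higher, at 1904 CPM in 21 M B6, 763 in 6 M DTR and 863 in 6 M WT. In each of these 5 genes 6 M WT lay near 6 M DTR and far from 21 M B6.

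The rest of the chaperone list differed less. Of 41 measured genes, 9 were at least 2-fold higher in 21 M B6 and 1, the small heat shock gene *Hspb2* at 6.23 against 16.0 CPM, was 2-fold higher in 6 M DTR. The median log2 ratio was 0.24. HSP40 partners of HSP70 and the cochaperone *Bag3* were among the 9, with *Dnaja1* at 1384 and 461 CPM, *Bag3* at 231 and 93.4, and *Dnajb1* at 119 and 51.2 in 21 M B6 and 6 M DTR. These 3 genes and *Hspb2* were picked after their values were seen. The study's own proteostasis list had 4 of 8 members past 2-fold toward 21 M B6 and none toward 6 M DTR, with a median of 1.12, but the study chose it on these samples, so it is not independent evidence of a direction. Chaperones of the endoplasmic reticulum differed less: *Hspa5*, the lumenal HSP70, stood at 1300 and 972 CPM, and of 38 genes of endoplasmic reticulum stress only *Chac1*, a glutathione-degrading enzyme, passed 2-fold, at 103 against 34.2 CPM. In 6 M WT *Chac1* also stood at 103. The median of that list was -0.13 by CPM and 0.16 with TMM factors, so it has no firm direction.

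Promoter sequences are shown for 3 of these genes because the letters read by heat shock factors can be looked for in them. The windows are the 250 bases before the annotated start in RefSeq for GRCm38.p6, 5′ to 3′ on the gene's strand. The genome build of the deposited counts is not given in the sources used here. Capitals mark a match to GAANNTTC or TTCNNGAA, each of which reads the same on both strands. *Hspa1b* lies at chr17:34959239-34959488 and *Hspa1a* at chr17:34972157-34972406, both windows on the minus strand, and *Hsph1* at chr5:149636337-149636586 on the minus strand.
Hspa1b: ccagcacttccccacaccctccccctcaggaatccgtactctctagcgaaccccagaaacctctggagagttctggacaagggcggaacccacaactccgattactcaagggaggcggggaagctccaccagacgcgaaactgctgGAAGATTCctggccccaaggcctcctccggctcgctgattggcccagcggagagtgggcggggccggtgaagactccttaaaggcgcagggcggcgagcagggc
Hspa1a: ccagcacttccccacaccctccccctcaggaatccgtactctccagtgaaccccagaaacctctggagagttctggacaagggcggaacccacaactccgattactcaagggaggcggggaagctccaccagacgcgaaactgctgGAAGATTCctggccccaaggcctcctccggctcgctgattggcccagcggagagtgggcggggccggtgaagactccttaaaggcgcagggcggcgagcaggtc
Hsph1: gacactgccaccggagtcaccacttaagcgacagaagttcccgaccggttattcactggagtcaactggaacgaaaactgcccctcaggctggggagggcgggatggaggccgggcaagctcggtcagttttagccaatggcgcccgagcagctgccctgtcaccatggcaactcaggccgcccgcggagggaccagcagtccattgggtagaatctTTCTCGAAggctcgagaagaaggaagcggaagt
The windows of *Hspa1b* and *Hspa1a* were the same at 247 of 250 bases, and the match began 104 bases before the start in both. In *Hsph1* it began 33 bases before the start. Such letters were found in 3489 of 27025 promoter windows of the same length (12.9%). Of the 41 measured chaperone genes 32 had a window, and 10 of these held a match. Among those at least 2-fold higher in 21 M B6 it was 4 of 7, and among the others 6 of 25. A match is a description of the sequence and shows no binding.

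Most interferon response genes stood higher in tenocytes of 21 M B6. Of 42 measured genes, 27 were at least 2-fold higher in 21 M B6 and 0 in 6 M DTR, and the median log2 ratio was 1.68. *Ifit1* (ENSMUSG00000034459), which binds foreign RNA, stood at 66.5 CPM in 21 M B6, 3.36 in 6 M DTR and 16.9 in 6 M WT. That is 19.8-fold (16.3 to 24.3), the highest ratio of all genes with at least 50 CPM. *Irgm1*, an immunity-related GTPase, stood at 158, 20.2 and 44.8 CPM (7.83-fold, 7.17 to 8.55), and *Iigp1*, another GTPase of the family, at 28.7, 2.72 and 9.22. All 3 had 6 M WT between the other libraries. *Gbp6*, a guanylate-binding protein, had 6 M WT level with 21 M B6 instead, at 181, 36.4 and 187 CPM. Components of the signalling complex that turns interferon genes on were higher too: *Irf9* stood at 65.4 and 15.6 CPM and *Stat2* at 64.4 and 15.6 in 21 M B6 and 6 M DTR, both picked after their values were seen. *Rtp4*, a receptor-transporting protein and interferon target, stood at 32.1 and 3.70, and the interferon-inducible genes *Ifi205* at 402 and 63.9 and *Ifi207* at 119.7 and 24.8.

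The promoters of *Ifit1*, *Irgm1* and *Irf9* are printed to show where the letters of an interferon-stimulated response element lie, or do not. Capitals mark GAAA followed after any 2 bases by a further GAAA, or the same letters on the other strand, which read TTTC, 2 bases and TTTC. The windows are chr19:34640639-34640888 on the plus strand for *Ifit1*, chr11:48871421-48871670 on the minus strand for *Irgm1* and chr14:55603735-55603984 on the plus strand for *Irf9*.
Ifit1: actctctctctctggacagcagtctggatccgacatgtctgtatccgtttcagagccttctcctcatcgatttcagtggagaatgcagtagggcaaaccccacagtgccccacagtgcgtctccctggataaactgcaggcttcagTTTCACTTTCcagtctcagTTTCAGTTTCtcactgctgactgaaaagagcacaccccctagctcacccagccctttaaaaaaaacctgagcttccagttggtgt
Irgm1: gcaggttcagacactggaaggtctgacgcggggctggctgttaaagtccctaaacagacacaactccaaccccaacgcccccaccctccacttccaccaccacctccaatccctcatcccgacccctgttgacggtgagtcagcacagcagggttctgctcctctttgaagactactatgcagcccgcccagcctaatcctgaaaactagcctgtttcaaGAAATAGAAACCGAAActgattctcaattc
Irf9: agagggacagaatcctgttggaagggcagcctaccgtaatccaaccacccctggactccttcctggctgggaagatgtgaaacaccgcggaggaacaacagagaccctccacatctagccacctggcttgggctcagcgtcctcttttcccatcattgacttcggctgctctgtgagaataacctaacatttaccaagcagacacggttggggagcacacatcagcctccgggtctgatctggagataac
*Ifit1* held 2 matches, starting 104 and 85 bases before the start. *Irgm1* held 2 that overlap each other, at 30 and 24 bases, and 1 of them also overlaps a match to the heat shock letters. *Irf9* held none, which says only that these letters are not in this window. Over all windows 821 of 27025 (3.04%) held a match. In the list 34 of 42 genes had a window and 18 held a match: 13 of the 22 that were at least 2-fold higher in 21 M B6 and 5 of the other 12.

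In the IL-6 family 1 ligand and 2 receptor genes stood over 2-fold higher in tenocytes of 21 M B6. *Il6* (ENSMUSG00000025746), the cytokine itself, stood at 428 CPM in 21 M B6, 81.0 in 6 M DTR and 123 in 6 M WT, a ratio of 5.29 (5.05 to 5.54). *Osmr*, the receptor chain for oncostatin M, stood at 421, 175 and 322 CPM (2.41-fold, 2.32 to 2.50), and *Lifr*, the receptor for leukaemia inhibitory factor, at 129, 60.3 and 127 (2.14-fold). For both receptors 6 M WT was nearer to 21 M B6 than to 6 M DTR, whereas for *Il6* it was nearer to 6 M DTR. *Il6st*, the signalling chain that these receptors share, stood at 249 and 253 CPM and was thus about equal. Downstream, the transcription factor *Stat3* stood at 331 and 178 CPM and the feedback inhibitor *Socs3* at 761 and 487. Of 17 measured genes of the family 4 were at least 2-fold higher in 21 M B6 and 0 in 6 M DTR, with a median log2 ratio of 0.67. The study's inflammaging list, chosen on these samples and so not independent evidence, had 2 of 5 members past 2-fold, *Il6* and the chemokine *Cxcl12* (179.7 and 74.1 CPM), with a median of 0.99.

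Other inflammatory groups were divided. In the NF-kappa B and interleukin 1 pathway 5 of 29 genes were at least 2-fold higher in 21 M B6 and 3 in 6 M DTR, with a median of 0.43. *Tnfaip6*, a hyaluronan-binding protein induced by inflammation, stood at 312 and 95.9 CPM (a log2 ratio of 1.70, but 0.69 in cells without haemoglobin UMIs), and *Birc3*, an inhibitor of cell death, at 121 and 48.9. The interleukin 33 receptor *Il1rl1* lay the other way, at 5.62 and 31.0. Among 19 chemokines 7 were 2-fold higher in 21 M B6 and 3 in 6 M DTR. The list summed to 7612 CPM in 21 M B6 and 8944 in 6 M DTR, and *Cxcl2* stood at 449.9 and 1129. The interferon-inducible T cell attractants *Cxcl9* and *Cxcl10* stood at 25.4 and 3.94 CPM and at 110.2 and 37.1. *Ccl5*, which also draws leukocytes, stood at 1.38 and 33.7. Few cells held *Ccl5* or *Cxcl9*: after thinning each cell to 2000 UMIs, *Ccl5* was found in 0.214% and 0.427% of tenocytes and in 1.25% and 1.46% of macrophages, and *Cxcl9* in 0.748% and 0.271% of tenocytes. The 5% of tenocytes with most of each held 100% of its UMIs in both libraries. Outside the tenocyte subtypes defined further on, *Ccl5* stood at 0.331 and 1.43 CPM. Among 20 acute-phase and complement genes the counts were 7 and 2. *C4b*, complement component 4, stood at 79.2 CPM in 21 M B6, 5.84 in 6 M DTR and 10.7 in 6 M WT (13.5-fold, 11.6 to 15.9). The metal-binding metallothioneins *Mt1* and *Mt2* had by far the most UMIs of that list, with *Mt1* at 24728, 7188 and 10538 CPM and *Mt2* at 10006, 2381 and 4129. *Saa2*, a serum amyloid A, stood at 93.0, 29.3 and 170.4, so that its highest level was in 6 M WT. Its log2 ratio of 21 M B6 over 6 M DTR was 0.22 in cells called male and 2.38 in cells called female.

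**Figure D2:**
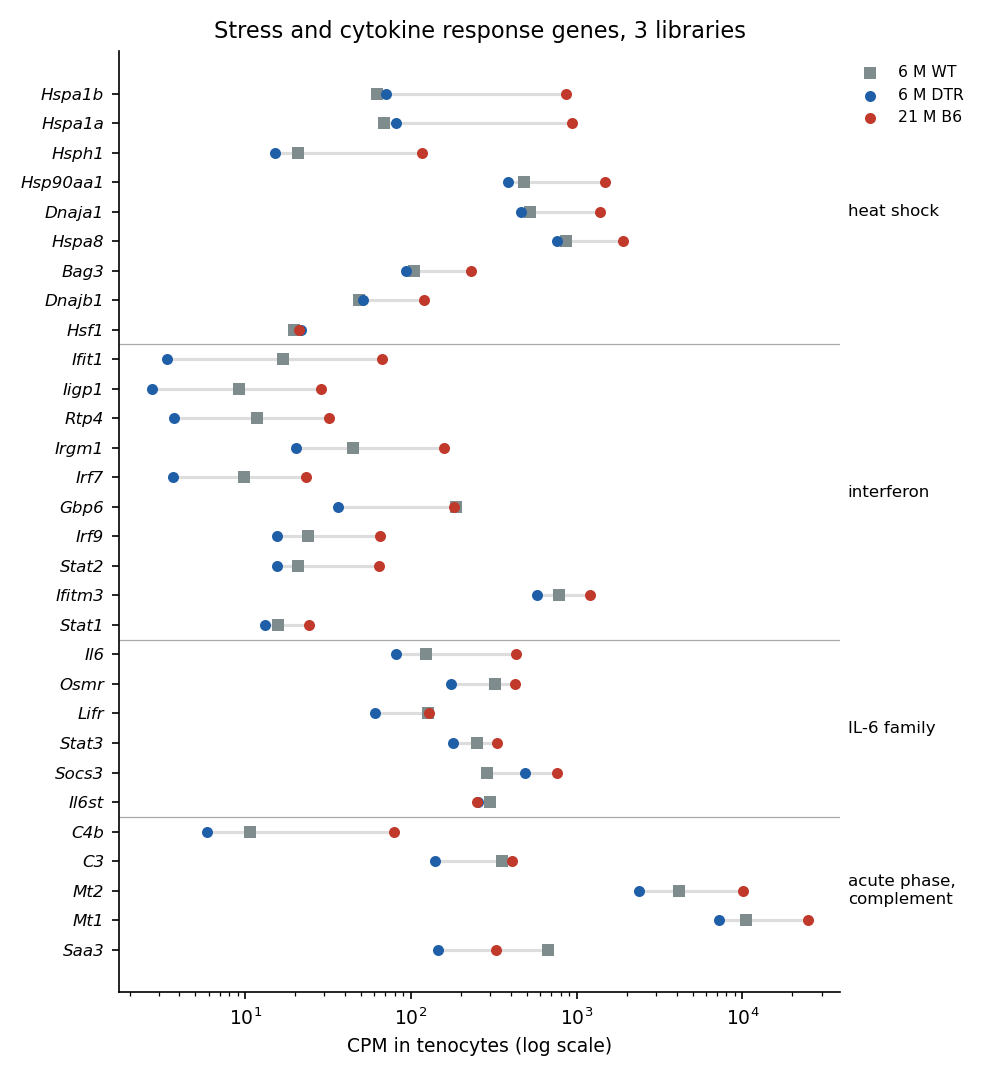
Levels in CPM (log axis) of heat shock, interferon, IL-6 family and acute-phase genes in tenocytes of 21 M B6, 6 M DTR and 6 M WT, 1 dot per library with no error bars because there was 1 library per group. The heat shock dots of 6 M WT sit beside those of 6 M DTR, as for *Hspa1b* at 62.0 and 70.8 CPM, whereas the interferon dots of 6 M WT lie between the others or beside 21 M B6, as for *Gbp6* at 187 and 181.

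Macrophage transcripts were checked beside these groups because myeloid cells also carry cytokine and interferon genes. The 9 macrophage markers, 2 of them limited by the rule, summed to 50.5 CPM in tenocytes of 21 M B6, 61.8 in 6 M DTR and 37.0 in 6 M WT. Without those 2 the sums were 46.9, 56.2 and 32.5. Single markers were divided, and 2 of the 5 that reached 5 CPM were higher in 21 M B6 than in 6 M DTR. Whether myeloid RNA had a part in the groups above was not tested. T cell markers summed to 0.519 and 3.70 CPM and 2 of the 5 were at 0 in 21 M B6. The 6 endothelial markers summed to 12.1 and 4.46 CPM, with *Pecam1* and *Cdh5* at 0 by the rule. Skeletal muscle markers summed to 90.5, 60.9 and 24.2.

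Several single genes outside those lists also stood higher in 21 M B6. *Ctla2a*, a cysteine protease inhibitor, stood at 67.5 CPM in 21 M B6, 4.60 in 6 M DTR and 3.14 in 6 M WT (14.7-fold, 12.4 to 17.5). Few tenocytes held it, as the shares further on show, so its interval is too narrow. *Fgl2*, a fibrinogen-like protein with prothrombinase activity, stood at 418, 38.4 and 68.8 (10.9-fold, 10.2 to 11.6), and *Angptl4*, an inhibitor of lipoprotein lipase, at 146, 14.9 and 69.3 (9.77-fold, 8.85 to 10.8). *Rarres2*, the precursor of the chemoattractant chemerin, stood at 149, 24.2 and 63.6. Hyaluronan synthase *Has1* stood at 862 and 270 CPM, the lipid carrier *Apod* at 1843 and 561, and the aggrecanases *Adamts1* at 358 and 91.3 and *Adamts4* at 40.1 and 7.58. Collagen XIV, a fibril-associated collagen, was the only one of 13 measured collagens outside the fibrillar list to be 2-fold higher in 21 M B6. *Col14a1* stood at 38.1 CPM in 21 M B6, 8.48 in 6 M DTR and 4.51 in 6 M WT. Its log2 ratio was 1.48 in cells called male and 3.50 in cells called female. The lysyl oxidase *Loxl4*, which crosslinks collagen, stood at 60.4, 16.9 and 43.1.

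Among immediate early genes 8 of 39 were at least 2-fold higher in 21 M B6 and 1 in 6 M DTR, with a median of 0.35. *Myc* stood at 831, 290.2 and 286 CPM and the AP-1 subunit *Fosl2* at 208, 88.8 and 132, while *Egr3* stood at 12.4, 32.0 and 9.47. Ribosomal protein genes differed by small amounts in a common direction: 69 of 79 were higher in 21 M B6, against 27.3% of the 9416 genes, none by 2-fold, with a median of 0.17. Translation factors had a median of 0.19 with 2 of 53 past 2-fold. The 13 mitochondrially encoded genes had a median of 0.85 with 4 past 2-fold. Their share of UMIs was limited by the filter that kept the cells, so these values are a description only. At a limit of 5% the median was 0.54. The 79 nuclear genes of oxidative phosphorylation had a median of -0.28, close to that of all genes, and 0.02 with TMM factors.

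Most fibrillar collagens lay the other way, while other matrix groups, given below, were less uniform. Of 9 measured fibrillar collagen genes 7 were at least 2-fold higher in 6 M DTR. None was 2-fold higher in 21 M B6, and the median log2 ratio was -1.17. *Col1a1* (ENSMUSG00000001506), the main chain of type I collagen, stood at 2299 CPM in 21 M B6, 5937 in 6 M DTR and 6239 in 6 M WT, 2.58-fold (2.55 to 2.62) higher in 6 M DTR. Its partner *Col1a2* stood at 2748, 5667 and 6304. For both type I chains the tenocytes of 6 M DTR were near those of 6 M WT, and 21 M B6 stood apart. *Col3a1*, the chain of type III collagen of healing and thin fibrils, stood at 763, 1873 and 892 CPM, and the fibril-nucleating chains *Col5a1* at 75.2, 166 and 100.2 and *Col11a1* at 101, 236 and 173. For *Col3a1* and *Col5a1*, 6 M WT was instead nearer to 21 M B6. *Col1a2* was the closest to the limit, with a log2 ratio of -1.04, and was under 2-fold in 5 of the 16 other settings tried. *Col5a1*, *Col11a1* and *Col27a1* were each under 2-fold in 2 of these settings and *Col3a1* in 1, whereas *Col1a1* was so in 0. The median of the list was -0.87 with TMM factors and -0.86 with at most 5% mitochondrially encoded UMIs, so the count past 2-fold depended on scaling and filter. Only *Col11a2* of the 9 was higher in 21 M B6, at 15.4 and 9.84 CPM, with 46.1 in 6 M WT.

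Of 26 matricellular and adhesive glycoproteins 9 were at least 2-fold higher in 6 M DTR and 0 in 21 M B6, with a median of -0.54. For members that reached 20 CPM the median was -0.21, against -0.27 for all genes at that level, so the list as a whole has no firm shift. *Spp1* (ENSMUSG00000029304), osteopontin, a mineral- and integrin-binding glycoprotein, stood at 774 CPM in 21 M B6, 5492 in 6 M DTR and 3541 in 6 M WT. It was 7.09-fold (6.95 to 7.25) higher in 6 M DTR, the lowest ratio of all genes with at least 50 CPM. *Fn1*, fibronectin, stood at 985, 3440 and 2652 CPM (3.49-fold, 3.43 to 3.56), and *Sparc*, a collagen-binding glycoprotein, at 2822, 7221 and 7389 (2.56-fold, 2.53 to 2.59). In these 3 genes 6 M WT was closer to 6 M DTR. *Edil3*, an integrin ligand, differed from them, at 21.2, 107 and 2.59 CPM: it was 5.03-fold (4.42 to 5.75) higher in 6 M DTR than in 21 M B6 and lowest in 6 M WT. *Coch*, cochlin, lay the other way, at 5346, 2944 and 12198 CPM, so 21 M B6 was 1.82-fold (1.80 to 1.83) above 6 M DTR and both were below 6 M WT.

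Genes of fibrocartilage, the tissue type where tendon is compressed or joins bone, had a median of -1.42, with 6 of 12 at least 2-fold higher in 6 M DTR and 1 in 21 M B6. In tenocytes outside the subtypes described further on the median of the same genes was -1.41. It was -0.78 when members were chosen anew by 5 CPM within those cells. *Acan*, aggrecan, was counted 1100 times in 6 M DTR and 2 times in 21 M B6, or 31.8 and 0.173 CPM. The ratio was 184, with a counting interval of 50.8 to 1521, and 6 M WT stood at 9.82 CPM. *Hapln1*, which links aggrecan to hyaluronan, stood at 1.82 and 23.1 CPM, *Cytl1*, a cytokine-like protein of cartilage, at 1.99 and 27.1, and *Clec3a*, a cartilage lectin, at 9.43 and 46.2. *Sox5*, a transcription factor of chondrocytes, stood at 14.6 and 56.2. The more abundant members differed less, with *Comp*, a collagen-assembly glycoprotein of tendon and cartilage, at 4833 and 7183 CPM and *Chad*, a collagen-binding leucine-rich protein, at 1432 and 2671.

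Other matrix groups were split. Among 30 proteases and inhibitors 9 were at least 2-fold higher in 6 M DTR and 4 in 21 M B6. *Mmp2*, a gelatinase, stood at 302 CPM in 21 M B6, 648 in 6 M DTR and 102 in 6 M WT, and *Ctsk*, the collagen-degrading cathepsin K, at 146, 469 and 196. *Mmp13*, a collagenase, stood at 11.1, 34.1 and 3.60. Among 10 small leucine-rich proteoglycans 2 were 2-fold higher in 6 M DTR: *Lum*, lumican, stood at 327, 971 and 358 CPM and *Omd*, osteomodulin, at 24.1, 50.6 and 52.3. *Dcn*, decorin, stood at 29659, 31427 and 33225 and was nearly level. Collagen-processing enzymes had a median of -0.41, close to that of all genes, with 3 of 30 past 2-fold toward 6 M DTR and 1 toward 21 M B6. Of 13 other collagens 4 were past 2-fold toward 6 M DTR, with *Col6a3*, a chain of the pericellular type VI collagen, at 100.1 and 289 CPM, and 1 toward 21 M B6. All 4 genes that the study had listed for 6 M DTR tenocytes (*Edil3*, *Fn1*, *Col5a1* and *Mmp2*) were past 2-fold toward 6 M DTR. Of the 6 listed for 6 M WT tenocytes the 2 type I collagen chains were, while *Coch*, *Fbln1*, *Col11a2* and *Tnxb* were higher in 21 M B6 by less than 2-fold and the median was 0.60. Both lists were chosen on these samples and are not independent evidence.

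**Figure D3:**
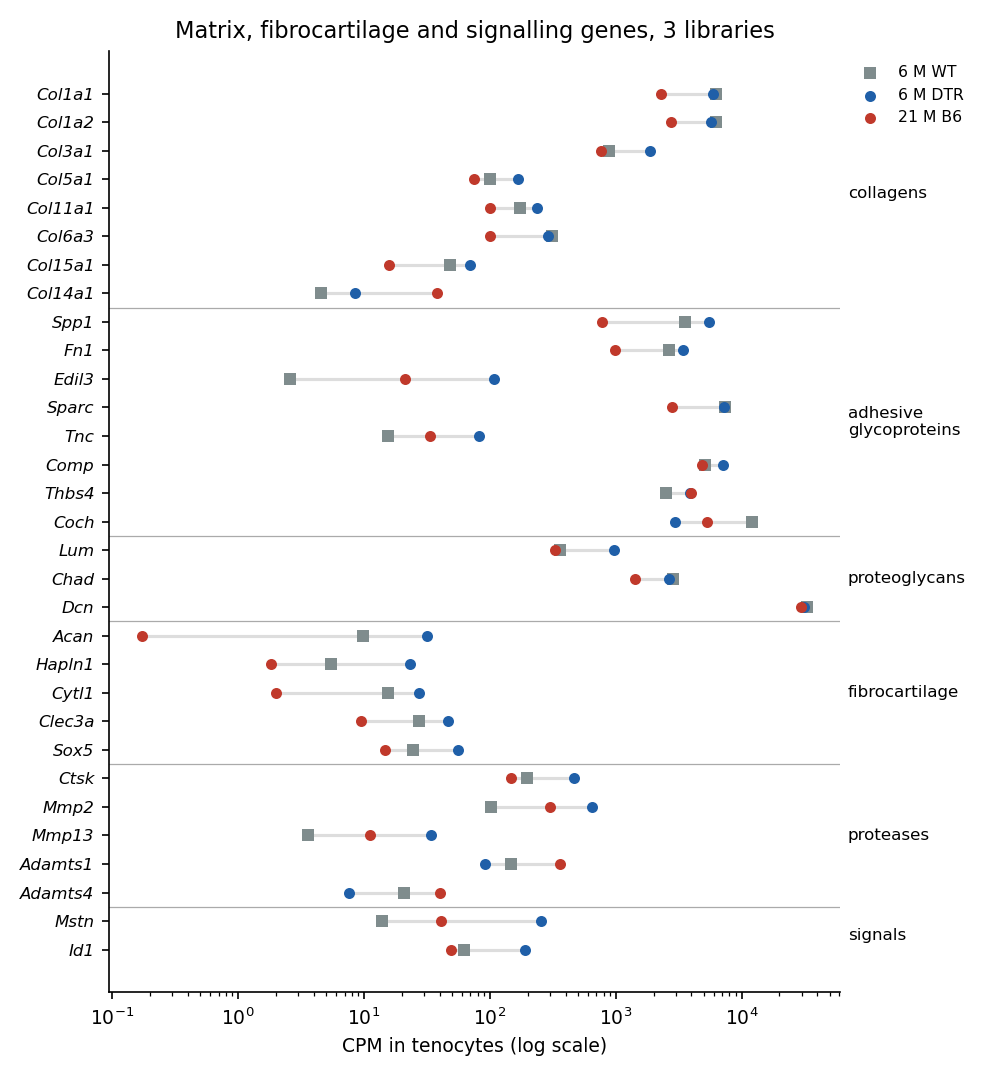
Levels in CPM (log axis) of collagen, adhesive glycoprotein, proteoglycan, fibrocartilage, protease and signalling genes in tenocytes of 21 M B6, 6 M DTR and 6 M WT, 1 dot per library with no error bars because there was 1 library per group. The dots of 21 M B6 lie left of those of 6 M DTR for the fibrillar collagens, as for *Col1a1* at 2299 and 5937 CPM, while *Dcn* is nearly level at 29659 and 31427.

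Signalling genes held a few large differences inside lists that otherwise resembled all genes. In the TGF-beta, BMP and activin pathway 3 of 39 genes were at least 2-fold higher in 6 M DTR and 0 were so in 21 M B6. The median of -0.31 equalled that of all genes. *Mstn*, myostatin, a secreted ligand of that family, stood at 41.2 CPM in 21 M B6 and 257 in 6 M DTR (6.24-fold higher in 6 M DTR, 5.69 to 6.86), and its level in 6 M DTR was 18.4-fold that in 6 M WT. *Id1*, a target of BMP signals, stood at 49.0, 191 and 62.7 (3.90-fold, 3.58 to 4.26), and *Nbl1*, a BMP antagonist, at 447, 928 and 599.6. *Tmem119*, a membrane protein known from osteoblasts and microglia, stood at 10.3, 53.9 and 8.37 CPM. In *Mstn*, *Id1* and *Tmem119* the library of 6 M DTR stood above both others. The ligand genes *Ereg*, a growth factor of the EGF family, at 39.5, 124 and 159 CPM, and *Pdgfa*, at 28.6, 74.9 and 33.6, were among the 4 of 21 EGF, FGF and PDGF genes past 2-fold toward 6 M DTR.

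Clock genes past 2-fold were 5 toward 6 M DTR and 1 toward 21 M B6 of 18, with *Dbp* at 33.8 and 122 CPM, *Per1* at 8.13 and 27.1 and *Per3* at 10.6 and 33.2. Of 26 genes of cell cycle arrest and senescence 2 were 2-fold higher in 21 M B6, *Il6* among them, and 3 in 6 M DTR, with *Cdkn2c*, an inhibitor of cell cycle kinases, at 3.55 and 25.7 CPM. The median was -0.54. Glycolysis and hypoxia genes were 4 and 4 of 34. Antioxidant genes of the NRF2 programme were 3 and 1 of 29, with the mitochondrial superoxide dismutase *Sod2* at 395 and 172 CPM and the glutathione peroxidase *Gpx1* at 307 and 676.

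Transcription factors of the tendon lineage differed by less than 2-fold. Of 15 measured genes 0 were past 2-fold in either direction, and the median was 0.03, against -0.31 for all genes. It was -0.13 in cells called female and 0.33 with TMM factors. Several members, such as *Klf2*, were also in the immediate early list. *Scx* had a log2 ratio of -0.64, *Mkx*, a homeobox factor of tendon, stood at 51.8 and 63.8 CPM, and *Eya2*, a transcriptional coactivator, at 26.4 and 15.4.

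**Figure D4:**
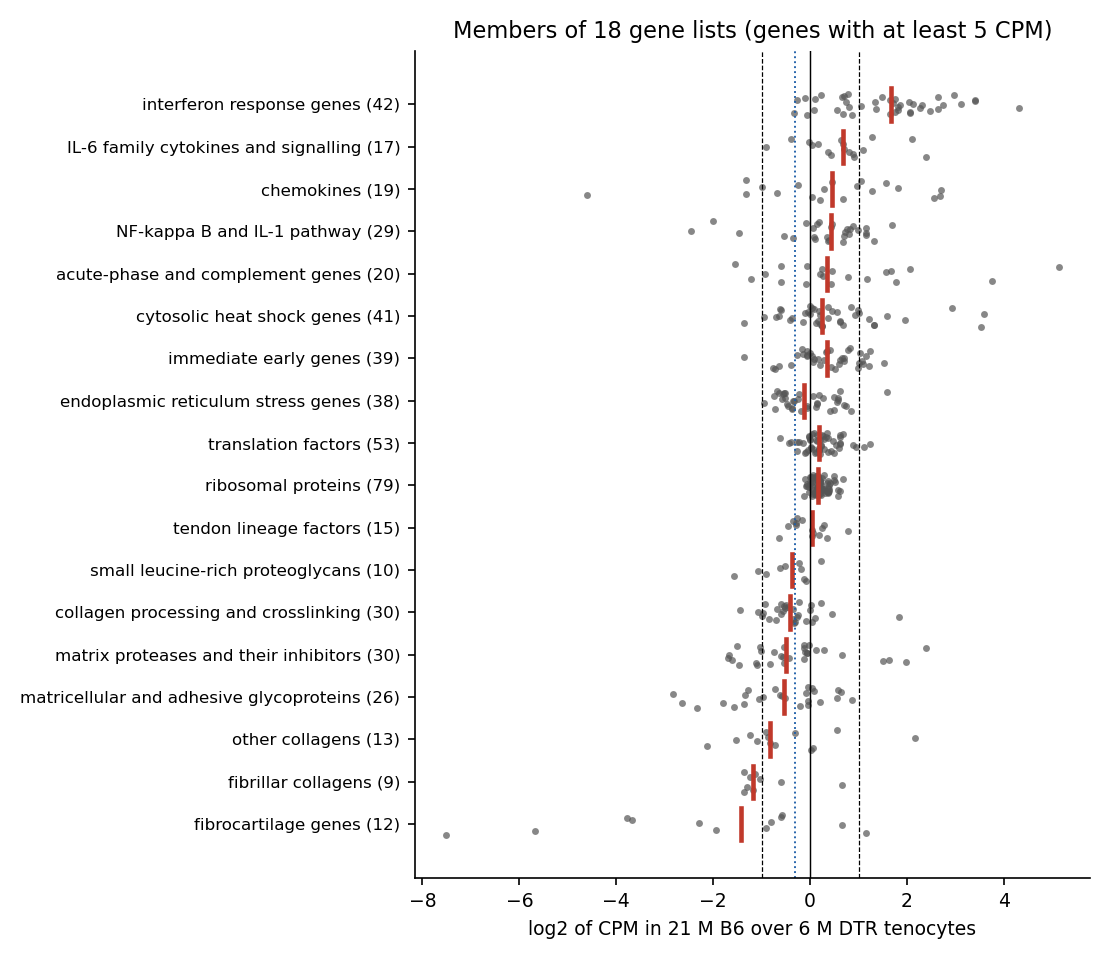
Log2 ratio of 21 M B6 over 6 M DTR in tenocytes for each measured gene (1 dot, at least 5 CPM in 1 library) of 18 gene lists, with the list median as a red bar, the median of all genes (-0.31) as a blue dotted line and 2-fold as dashed lines. The interferon median lies at 1.68 and the fibrocartilage median at -1.42, with the tendon lineage factors at 0.03.

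Shares of cells were compared after each cell was thinned to 2000 UMIs, which left out 1 tenocyte of 21 M B6 and 0 of the others. Macrophages of the same library, with at least 10 UMIs of *Tyrobp* and *Fcer1g*, at least 5 of C1q genes and under 10 of either fibroblast sum, are given as a reference for RNA free in the droplets, where they should lack the gene; their median depth was 14536 UMIs in 21 M B6 and 13465 in 6 M DTR. *Osmr* was found in 47.2% (44.0 to 50.5) of tenocytes in 21 M B6 and 25.8% (24.1 to 27.6) in 6 M DTR, against 1.25% and 0.833% of macrophages. *Il6* was found in 23.4% (20.7 to 26.2) and 5.93% (5.05 to 6.91), against 4.51% and 1.88% of macrophages, and *Irgm1* in 20.1% (17.6 to 22.8) and 3.10% (2.47 to 3.85), against 5.01% and 1.88% of macrophages, which can express it. For *Osmr* and *Il6* the higher summed level in 21 M B6 was accompanied by a larger share of tenocytes with a UMI. *Hspa1b* was found in 41.1% (38.0 to 44.4) and 11.6% (10.4 to 12.9) of tenocytes, but in macrophages, which can express it, the shares were 52.9% and 21.7%. Without thinning, the tenocyte shares were 68.0% and 44.2% for *Hspa1b*, 43.4% and 17.4% for *Il6*, 83.7% and 66.4% for *Osmr* and 47.2% and 14.2% for *Irgm1*.

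The highest ratio belonged to a gene held by few cells. *Ifit1* was found in 3.63% (2.53 to 5.04) of tenocytes in 21 M B6 and 0.427% (0.213 to 0.762) in 6 M DTR. Macrophages, which can express it, gave 3.76% and 1.46% and so set no background here. Whether the tenocyte shares exceed a background cannot be told. The 5% of tenocytes with the most *Ifit1* held 95.1% of its UMIs in 21 M B6. For *Irgm1* the same 5% held 36.1%, and for *Hspa1b* 47.5%. *Ctla2a* was similar to *Ifit1*, found in 1.18% and 0.582% of tenocytes, against 1.25% and 1.88% of macrophages. *C4b* was found in 8.01% (6.35 to 9.94) and 1.20% (0.818 to 1.70) of tenocytes, below or close to the 15.3% and 1.25% of macrophages, which themselves carry it.

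The matrix genes chosen here differed in their shares too. *Fn1* was found in 49.3% (46.0 to 52.5) of tenocytes in 21 M B6 and 91.3% (90.1 to 92.3) in 6 M DTR, and *Spp1* in 25.9% (23.1 to 28.8) and 64.0% (62.1 to 65.9). Macrophages, which make both, gave 23.1% and 51.2% for *Fn1* and 4.51% and 34.4% for *Spp1*. *Lum* was found in 34.0% and 59.7% of tenocytes, against 1.00% and 1.15% of macrophages. *Mstn* was found in 3.63% (2.53 to 5.04) and 13.3% (12.0 to 14.7), against 0% and 0.729%, and 94.7% of its UMIs in 21 M B6 lay in the 5% of tenocytes with most of it. *Edil3* was found in 3.21% (2.17 to 4.54) and 18.9% (17.4 to 20.5), against 4.51% and 1.98% of macrophages. Its share in tenocytes of 21 M B6 was thus not above that of macrophages, and whether it exceeds a background cannot be told. Unthinned, the shares were 81.6% and 99.3% for *Fn1*, 40.7% and 82.0% for *Spp1*, 63.3% and 84.8% for *Lum*, 7.68% and 21.5% for *Mstn* and 13.6% and 48.8% for *Edil3*.

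**Figure D5:**
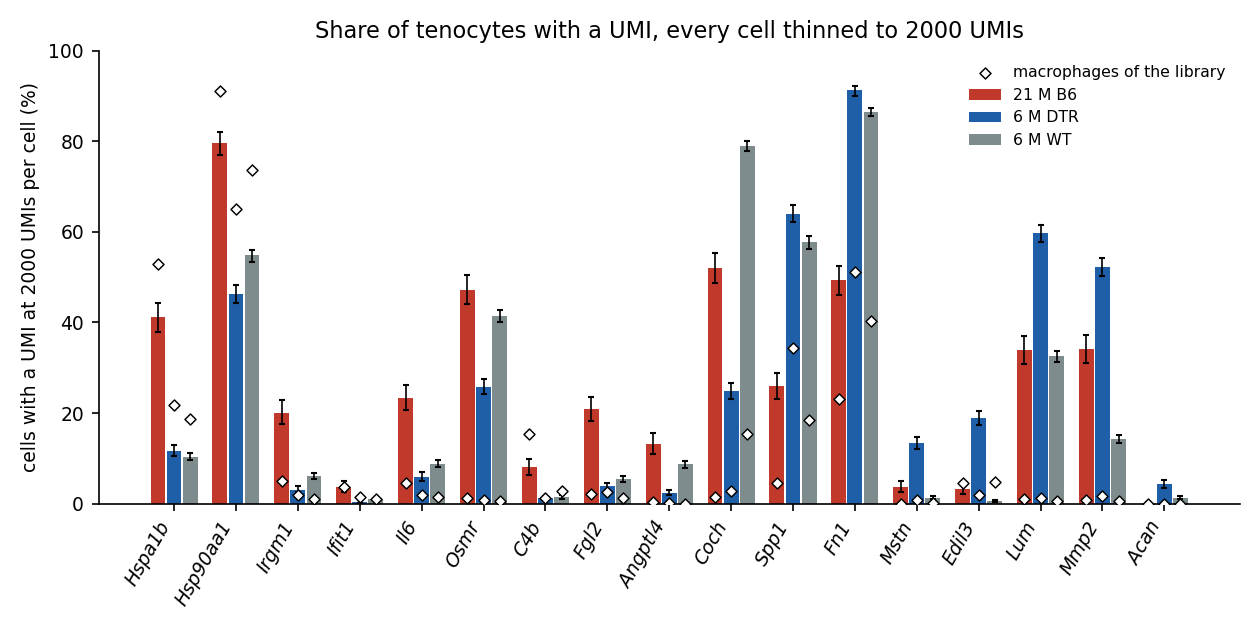
Share of tenocytes with at least 1 UMI of each gene after thinning to 2000 UMIs (vertical axis, percent), with bars for the 3 libraries, exact 95% binomial intervals that cover counting error only, and diamonds for the macrophages of the same library. *Osmr* bars stand at 47.2% in 21 M B6 and 25.8% in 6 M DTR with diamonds at 1.25% and 0.833%, whereas the *Ifit1* bars (3.63% and 0.427%) are at or below their diamonds.

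Tenocytes are not uniform, and the mix of subtypes differed. Cells with at least 3 UMIs of *Slurp1*, *Serpinb7* and *Vcan* together made up 15.4% of tenocytes in 21 M B6, 23.5% in 6 M DTR and 34.6% in 6 M WT. A further subtype, with at least 3 UMIs of *Igfbp3* and *Scn7a* among the other cells, made up 2.35%, 1.28% and 0.772%. Both cutoffs count raw UMIs, so a change in share cannot be told apart from a change in level or depth per cell. In the *Slurp1*, *Serpinb7* and *Vcan* cells *Hspa1b* had a log2 ratio of 3.49. In those outside both subtypes, which were 82.3% and 75.2% of tenocytes, it had 3.68. *Il6* had 2.28 and 2.36, *Col1a1* -1.38 and -1.42, and *Fn1* -1.49 and -1.82. The interferon list had a median of 1.22 in the *Slurp1*, *Serpinb7* and *Vcan* cells and 1.58 in those outside both subtypes. *Mstn* was mostly in cells outside both subtypes, at 42.3 CPM in 21 M B6 and 325 in 6 M DTR.

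The sex of the cells bore on some genes. In cells called male the log2 ratio was 4.02 for *Hspa1b* and in cells called female 2.56, and both lie past 2-fold. *Il6* had 2.54 and 2.60 and *Col1a1* -1.25 and -1.35. Several of the genes higher in 6 M DTR differed more in cells called male: *Mstn* had -3.18 against -0.81 in cells called female, *Edil3* -3.58 against -1.33, *Lum* -2.40 against -0.90 and *Mmp2* -1.45 against -0.38. *Mmp13* had -2.66 against -0.14 and *Egr3* -2.17 against -0.19. Like *Mstn*, *Lum* and *Mmp2*, both were thus under 2-fold in cells called female. *Tnfaip6* lay the other way, with 1.03 in cells called male and 2.71 in cells called female, and *Cxcl12* had 0.88 and 1.62. *Coch* had 1.48 in cells called male and 0.15 in cells called female. The number of mice of each sex per pool was not used here. Whether these differences exceed those between mice was not tested.

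Values in other cells of the same libraries are set beside those of tenocytes without a test. Epitenon cells were chosen by the mirrored rule, with at least 10 UMIs of the 6 epitenon genes and more of them than of the 4 tenocyte genes. *Hspa1b* stood at 1003 CPM in 2052 epitenon cells of 21 M B6 and 175 in 968 of 6 M DTR, and at 856 and 141 in macrophages. *Il6* stood at 913 and 204 in epitenon cells. *Irgm1* stood at 84.7 and 9.37 CPM in epitenon cells and 28.2 and 9.28 in macrophages. *Hspa1b* and *Irgm1* thus stood higher in 21 M B6 in both of these classes. Of the 124 genes past 2-fold toward 21 M B6 in tenocytes, 115 reached 20 CPM in epitenon cells. At least 2-fold higher there too were 66 of them. Of the 125 toward 6 M DTR it was 35 of 108, and 0 of either set were 2-fold opposite. Over 3002 genes of epitenon cells the shares were 3.66% and 2.03%. In macrophages it was 22 of 99 and 14 of 65, against 3.66% and 2.82% of 2979 genes. The log2 ratio of *Col1a1* was -1.37 in tenocytes, -1.11 in epitenon cells and -1.88 in macrophages, where its level was 10.5 and 38.6 CPM. *Lum* and *Mmp2* were nearer to level in epitenon cells, with log2 ratios of -0.34 and -0.17 against -1.57 and -1.10 in tenocytes. *Angptl4* had a log2 ratio of 0.76 in epitenon cells, where its level in 21 M B6 was 3.56 CPM, against 3.29 in tenocytes.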

How the data were processed

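Single-cell libraries of FDL tendon were made by the authors with the Chromium 3′ kit, version 3, and deposited as raw UMI counts per gene and barcode for 32285 genes. The headers of the deposited count files name Cell Ranger 6.0.1, whereas the submitters' processing notes name 2.1.1. Both libraries compared, and 6 M WT beside them, hold 1 pool each, so differences carry no p-value. UMIs of the tenocytes chosen by the rule were summed per library (11556600 in 21 M B6, 34560782 in 6 M DTR) and scaled to CPM, and ratios were formed directly. A gene was counted as past 2-fold without regard to error. Exact 95% intervals (binomial for shares, and conditional on both UMI counts for ratios) cover counting error only.

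Shares of cells were taken after thinning each cell to 2000 UMIs. Scrublet in scanpy 1.11.5 marked 7, 2 and 1 kept cells of 6 M DTR, 6 M WT and 21 M B6 at its own threshold (0.107%, 0.0239% and 0.0208%) and so had not worked. Doublets were kept except where the 5% of cells with the highest score were removed. A cell was called female if it held *Xist* but no Y-linked UMI, and male in the opposite case. Computations ran in Python 3.11.15 (scipy 1.17.1, numpy 2.4.6, matplotlib 3.10.9, pandas 2.3.3), and TMM factors came from edgeR 4.0.16 in R 4.3.3. The ratio step was tested on simulated data with known fold changes.

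The tenocyte rule, the 44 gene lists and the genes named were chosen with earlier results of these data known. Genes named were the 15 highest and 15 lowest ratios among genes that reached 50 CPM (without rule genes, *Xist*, Y-linked and mitochondrially encoded genes), up to 4 members of each list with the largest log2 ratio in size among those that reached 20 CPM, genes the study names, *Scx*, *Hbegf* and the rule genes. Other genes named (*Bag3*, *Cox6a2*, *Cxcl2*, *Dcn*, *Dnaja1*, *Dnajb1*, *Has2*, *Hspb2*, *Il6st*, *Irf9*, *Mkx*, *Socs3* and *Stat2*) and some in the plots were picked after their values were seen, and *Gm42418* as a sign of quality. In the files 38 symbols are repeated, and a list symbol among them was read at the entry with the most UMIs in kept cells. Alternatives changed the filters, the rule, doublets, sex of the cells, scaling and thinning. The alternatives on shared barcodes, haemoglobin UMIs, subtypes, top doublet scores and CPM without mitochondrially encoded, *Gm42418*, *Malat1* and haemoglobin UMIs were chosen after seeing the data. Promoters came from RefSeq (GRCm38.p6). Clustering and the cell communication, proteomic and histological parts of the study were not used here.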

Additional observations from a re-analysis of the deposited data

How the results depend on the processing

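The share of tenocytes among kept cells of 21 M B6 was 15.8% with at most 5% mitochondrially encoded UMIs, 17.8% when at least 20 UMIs of the 4 tenocyte genes were required and 16.2% in cells called female. In 6 M DTR it was 41.2% at the 5% limit, 37.8% with no upper gene limit, 41.7% and 35.2% with at least 5 and 20 UMIs of the 4 genes, and 37.9% when these had to exceed 5 times the epitenon sum. Genes at least 2-fold higher in 21 M B6 and in 6 M DTR numbered 220 and 267 from a level of 20 CPM. Over 16621 genes with more than 3 UMIs in either library, where more genes of low count are counted, they numbered 907 and 2542. With TMM factors they numbered 244 and 54. Without mitochondrially encoded, *Gm42418*, *Malat1* and haemoglobin UMIs they numbered 155 and 112, so that 58.1% of calls were higher in 21 M B6, and at the 5% limit 154 and 111. Of 113 named genes past 2-fold, 75 were past it in each of 16 alternatives, and the direction changed only for *Hba-a1* (0.01), *Hbb-bs* (0.07) and *Hbb-bt* (0.27), all in cells called male. Many of the 113 were named for large ratios in these same data. The removal of called doublets took out 0 tenocytes of either library and so could change no ratio. Of 17 lists with a median of at least 0.5 in size, 2 changed direction: skeletal muscle markers to -0.30 at the 5% limit and red blood cell genes to 0.04 in cells called male. The cause was not tested. Among lists nearer to 0, TMM factors gave 0.25 for growth factor genes of the EGF and FGF families and 0.03 for IGF genes. No paired analysis was possible because each group was 1 library. With the 2 libraries compared having 1 pool each, depth does not limit the ratios of abundant genes, while genes with few UMIs, such as *Acan* with 2 in 21 M B6, have wide intervals.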

Other observations

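Several groups of tendon biology were not described above. Of 19 genes of elastic fibres and fibulins 3 were at least 2-fold higher in 21 M B6 and 3 in 6 M DTR. *Hmcn2*, a hemicentin of basement membranes, stood at 28.8 CPM in 21 M B6, 6.80 in 6 M DTR and 5.12 in 6 M WT, whereas *Fbln7*, a fibulin that binds cells, stood at 23.4, 77.2 and 5.41, with a log2 ratio of -0.63 in cells called female. *Ltbp2*, a latent TGF-beta binding protein of microfibrils, stood at 45.9, 109 and 43.0, and *Fbln1* at 789.9, 496 and 715. Among 9 genes of hyaluronan synthesis and turnover 3 were higher in 21 M B6 and 2 in 6 M DTR, with the synthases *Has1* and *Has2* (21.8 and 7.90 CPM) on the aged side and *Cemip*, a hyaluronan-degrading protein, at 5.19 and 27.3 on the other. *Has2* was picked after its values were seen.

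In the Wnt pathway 3 of 23 genes were past 2-fold toward 21 M B6 and 4 toward 6 M DTR, with the secreted protein *Dkk3* at 54.9 and 150 CPM and the receptor *Fzd2* at 10.2 and 25.1. Actin, integrin and YAP target genes numbered 2 and 1 of 33 past 2-fold, against 3.79% and 7.32% of the 9416 genes, with a median of -0.45. *Ankrd1*, a YAP target, had the highest ratio of that list, at 31.3, 5.27 and 8.34 CPM in 21 M B6, 6 M DTR and 6 M WT. It does not stand for the other YAP targets of the list. Among 27 cholesterol and lipid genes the counts were 4 and 1, and the median was -0.47, with the apolipoprotein gene *Apoe* at 169 and 78.6 CPM (a log2 ratio of 0.58 in cells called male) and the desaturase *Scd2* at 36.3 and 90.6. Of 10 IGF genes 2 were past 2-fold toward 21 M B6 and 1 toward 6 M DTR, and *Igf1* stood at 140.4, 83.5 and 129 CPM. *Cox4i2*, a subunit of cytochrome oxidase, was the only one of 79 nuclear genes of oxidative phosphorylation past 2-fold toward 6 M DTR, at 2.42, 43.7 and 18.5 CPM, and *Cox6a2*, picked after its values were seen, the only one toward 21 M B6, at 5.80 and 2.37.

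Transcripts of other cell types within tenocytes also differed. Mural cell markers summed to 40.8 CPM in 21 M B6 and 98.5 in 6 M DTR, with *Rgs5*, a pericyte gene, at 6.92 and 22.4 (a log2 ratio of -0.51 in cells called male), and Schwann cell markers to 14.2 and 31.6. Epitenon genes, limited by the rule, summed to 134 and 99.9 CPM. The 4 haemoglobin genes were each at least 2-fold higher in 6 M DTR. In cells called female their log2 ratios ran from -7.52 (*Hba-a2*) to -6.77 (*Hbb-bs*). In cells called male they ran from -0.11 (*Hba-a2*) to 0.27 (*Hbb-bt*) and were thus near level. The part of these transcripts in the differences between the libraries was not tested.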
